A study of Mus musculus with 24 samples.

Results

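Mitotic kinases and B-type cyclins were followed in mouse primary muscle cells, as a set of 10 genes: Cdk1, Ccnb1, Ccnb2, Plk1, Aurka, Aurkb, Bub1, Bub1b, Ttk and Nek2. The genes were chosen by name, with earlier results of these data known. Every Affymetrix MOE430A or MOE430B probe set annotated to exactly 1 of them was taken. The annotation gave 18 such probe sets for 9 genes, 11 on MOE430A and 7 on MOE430B, of 45137 non-control probe sets in all. Ccnb1 had no probe set under this rule and was not analysed here. A filter on dim signals left 16 of the 18 probe sets, and 31931 of the 45137. To pass, a probe set had to exceed, on 3 or more of the 12 arrays of its chip type, the 40th percentile of the array in question. The 2 member probe sets that failed it were the second ones of Aurka (1440129_at) and Bub1b (1447362_at), with group means of 181 to 378 and 133 to 359.

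The study put total RNA of 12 cultures on both chip types, 24 arrays, with 3 cultures in each of 4 groups. Wild-type myoblasts (cultures A, B and C) and myoblasts without the retinoblastoma protein, called Rb-null (D, E and F), came from satellite cells and grew in 20% fetal bovine serum with bFGF. The myotubes were wild type (G, H and I) or MCK-cre Rb-flox (J, K and L, called Rb-flox below) and were taken on day 6 in low serum, 5% horse serum, each from 3 independent cell lines. In the Rb-flox cultures the Cre recombinase that deletes the floxed Rb gene is driven by the muscle creatine kinase promoter, which becomes active as muscle cells differentiate. How the Rb-null myoblasts were made is not given in the sources used here. The labels name fibroblasts as the contaminating cell and estimate a purity of 99 to 100%.

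Dividing myoblasts enter mitosis when the kinase Cdk1, bound to a B-type cyclin, becomes active. Polo-like and Aurora kinases then build the spindle, and the checkpoint kinases Bub1, BubR1 (the product of Bub1b) and Mps1 (the product of Ttk) hold anaphase until chromosomes are attached. Transcription of these genes peaks in G2 and M and is switched off when myoblasts leave the cell cycle and fuse, a step in which the retinoblastoma protein acts by restraining E2F transcription factors. In arrested cells, repressor complexes are known to act at a CHR element (cell cycle genes homology region) in many of these promoters, which often hold CCAAT boxes too.

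The values are MAS5 signals, a linear intensity for each probe set. Differences were taken as log2(signal + offset), with an offset of 130 on MOE430A and 206 on MOE430B, so a change of a gene whose signal lies near the offset is understated. Each gene was represented by 1 probe set, all on MOE430A, and limma with Benjamini-Hochberg adjustment over all 31931 probe sets gave the adjusted p-values, with 0.05 as the threshold. The p-values measure the spread between cultures, and 3 cultures per group limit the precision of every value. All 6 myotube cultures and wild-type myoblast B were scanned on the last scan day, while the other 5 myoblast cultures were scanned before it. The 18S rRNA control read 5394 to 11786 on MOE430A on the last day and 199 to 511 before it. Comparisons between both myotube groups therefore lie within 1 scan day, and comparisons of myotubes with myoblasts do not.

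The targeted gene followed the labels. Rb1 (1417850_at), which encodes the retinoblastoma protein, gave signals of 2879, 1439.7 and 1579 in wild-type myoblasts and 428, 712 and 259.7 in Rb-null myoblasts. It gave 3664, 3265 and 3314 in wild-type myotubes and 685, 802 and 589.8 in Rb-flox myotubes. Every culture labelled as lacking Rb lay below every culture that was not. The difference between the myotube groups was -2.11 (log2, limma adjusted p = 0.00109), and that between the myoblast groups was -1.82 (limma adjusted p = 0.352). Whether the probes lie inside the deleted part of the gene was not known, and the other Rb1 probe set failed the filter.

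The promoters of the members share sequence elements that the choice of genes did not use. RefSeq (GRCm38.p6) held promoter windows of 300 bases, from 250 before to 50 after the gene start, for 8 of the 9 measured genes. Aurkb had no entry. Both strands were searched for the CHR letters TTTGAA, the CCAAT box (CCAAT), and 4 spellings of an E2F site (TTTCCCGC, TTTCGCGC, TTTGCCGC and TTTGGCGC), and no 2 matches overlapped. A CCAAT box was present in 8 of 8 windows, against 37.4% of all 32851 promoter windows. A CHR match was present in 6 of 8, against 17.9%, and these 6 also held a CCAAT box, a pair found in 6.95% of all windows. An E2F spelling was present in 1 of 8, against 2.26%. Bub1 and Nek2 had no CHR match in their windows. A match is a run of letters, not a shown binding site. Stretches from 150 bases before to 30 after the start are printed for the 2 members with the largest rise in Rb-flox myotubes (Cdk1 and Ccnb2). They are also printed for the one whose representative probe set regained the smallest share of its fall (Plk1) and for a member without a CHR match (Bub1). Capitals mark the matches, on either strand. They are read on each gene's own strand, which is minus for Cdk1 (chr10:69352883-69353062), Ccnb2 (chr9:70421525-70421704) and Bub1 (chr2:127831830-127832009) and plus for Plk1 (chr7:122159285-122159464).
Cdk1: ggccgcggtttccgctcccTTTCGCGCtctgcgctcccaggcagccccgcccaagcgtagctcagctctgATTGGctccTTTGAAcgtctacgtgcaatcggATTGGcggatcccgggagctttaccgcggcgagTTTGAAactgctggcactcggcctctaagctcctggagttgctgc
Ccnb2: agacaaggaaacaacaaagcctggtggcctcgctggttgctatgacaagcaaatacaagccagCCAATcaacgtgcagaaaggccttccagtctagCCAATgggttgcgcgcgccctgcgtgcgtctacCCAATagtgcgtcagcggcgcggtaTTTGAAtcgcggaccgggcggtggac
Plk1: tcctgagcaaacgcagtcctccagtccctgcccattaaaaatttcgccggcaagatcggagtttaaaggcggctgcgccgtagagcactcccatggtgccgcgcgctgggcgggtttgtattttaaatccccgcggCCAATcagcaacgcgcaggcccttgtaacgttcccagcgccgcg
Bub1: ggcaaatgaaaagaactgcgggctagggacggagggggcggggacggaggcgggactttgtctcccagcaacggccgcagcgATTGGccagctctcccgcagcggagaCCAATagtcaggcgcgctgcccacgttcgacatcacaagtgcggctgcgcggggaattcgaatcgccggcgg
The Cdk1 stretch holds the E2F spelling at -131 to -124, CCAAT boxes on the opposite strand at -80 to -76 and -48 to -44, and CHR matches at -71 to -66 and -15 to -10. The Ccnb2 stretch holds 3 CCAAT boxes, ending at -83, -50 and -17, and a CHR match at 5 to 10 after the start. In Plk1 the CHR match lies at 31 to 36, just past the printed end, and a CCAAT box at -14 to -10. Bub1 holds a CCAAT box on each strand, at -68 to -64 and at -42 to -38.

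In wild-type myotubes 7 of the 8 mitotic kinases and cyclin B2 fell below their myoblast level, and in Rb-flox myotubes the same 8 genes rose, Nek2 being the kinase whose representative probe set passed in neither comparison. The mean Rb-flox signal was 86.4% of the wild-type myoblast mean for Cdk1, 30.2% for Plk1 and 29.1% for Bub1. Of the 16 member probe sets, 12 fell from wild-type myoblasts to wild-type myotubes and 0 rose, with a median of -2.24 (log2). Over all probe sets tested 25% changed in this comparison, 11.3% higher and 13.7% lower, with a median of 0.10. Of the 9 representative probe sets, 8 fell, with a median of -2.67, where 27.7% of the representative probe sets of all genes changed. With scan day as a block 8 of 9 were called as well. In Rb-flox against wild-type myotubes, 10 of the 16 rose and 0 fell, with a median of 1.18, where over all probe sets 8.21% changed, 4.96% higher and 3.25% lower, with a median of 0.02. Of the 9 representative probe sets, 8 rose, with a median of 1.57, where 9.95% of those of all genes changed. Cultures of both groups did not overlap for 9 of 9. The share of all genes without overlap was not counted, so this count is not read as support for the rise. The 2 comparisons share the wild-type myotube cultures, and the genes were chosen with earlier results of these data known. In these bulk samples fewer dividing cells and less RNA per cell cannot be told apart.

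**Figure D1:**
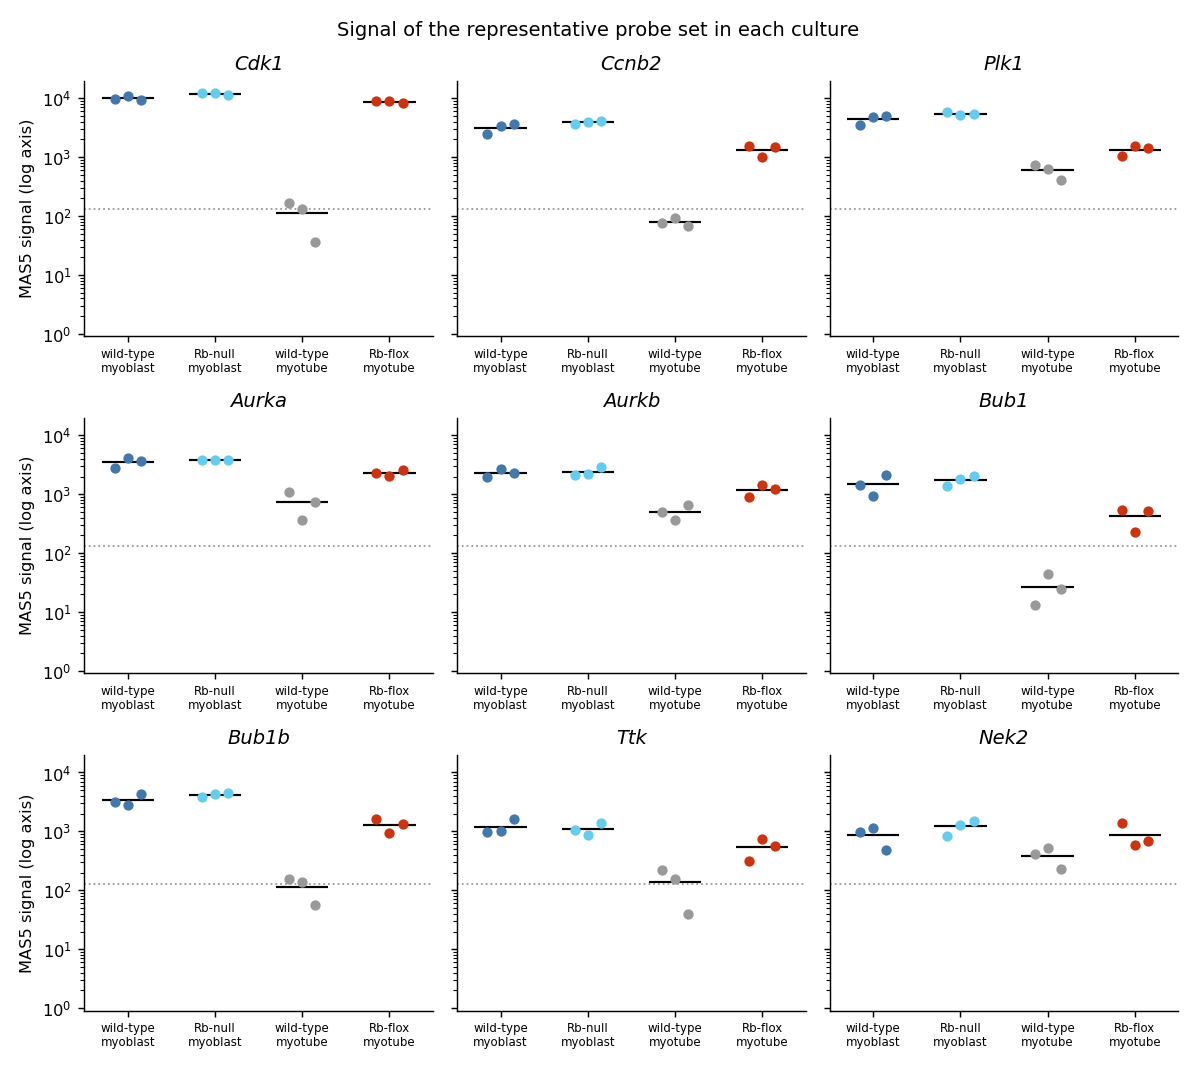
MAS5 signal (log axis) of the representative probe set of each gene in each culture, by group. Points are cultures, bars are group means and the dotted line is the offset of 130. Cdk1, Ccnb2, Bub1 and Bub1b had group means under that line in wild-type myotubes, and in Rb-flox myotubes the means of Cdk1 and Nek2 were at 86.4% and 102% of the wild-type myoblast mean.

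Cdk1 (1448314_at; gene at chr10:69335146-69352912), the kinase whose activity starts mitosis, returned the furthest of the genes with a called fall. Its signals were 9631, 11037 and 9472 in wild-type myoblasts, 169, 134 and 36.1 in wild-type myotubes and 8857, 8849 and 8328 in Rb-flox myotubes. Of the wild-type myotube cultures G and H lay just above the offset and I well under it, and the Rb-flox cultures lay just under the lowest myoblast culture, without overlap. Cdk1 fell by 5.43 on the log2 scale (limma adjusted p = 1.1e-08) in wild-type myotubes. It rose by 5.22 in Rb-flox against wild-type myotubes (SE 0.20, limma adjusted p = 2.43e-08), which is 96.2% of the fall on this scale. Both sizes are set by the offset, since the wild-type myotube mean of 113 lies under it: the return was 6.26 with an offset of 16 and 4.06 with one of 435, and the ratio of mean signals was 76.6. Against wild-type myoblasts the Rb-flox myotubes differed by -0.21 (95% interval -0.65 to 0.24, limma adjusted p = 0.518). This interval still allows a level somewhat below that of myoblasts.

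Ccnb2 (1450920_at; chr9:70407689-70421554) encodes cyclin B2, a partner that activates Cdk1. It read 2447, 3359 and 3590.0 in wild-type myoblasts, 75.8, 91.1 and 69 in wild-type myotubes and 1525, 993 and 1473 in Rb-flox myotubes. The 3 groups were fully separate, with the Rb-flox cultures in between, at 42.5% of the myoblast mean. The return was 2.79 (SE 0.23, limma adjusted p = 9.75e-06), or 70.6% of a fall of -3.95. The cyclin stayed below the wild-type myoblasts (difference -1.16, limma adjusted p = 0.00516, or 0.0249 when scan day was a block).

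Plk1 (1448191_at; chr7:122159435-122169884), the polo-like kinase that promotes mitotic entry and spindle formation, had the smallest share of its fall regained among the representative probe sets, 38.7%. Its signals were 3538, 4789 and 4991 in wild-type myoblasts, 749.9, 633 and 404 in wild-type myotubes and 1040.5, 1530.3 and 1451 in Rb-flox myotubes. All wild-type myotube signals lay above the offset, which still lowers the fitted changes: the return was 2.05-fold in the fit and 2.25-fold as a ratio of mean signals. The return was 1.03 (SE 0.23, limma adjusted p = 0.0151), and it was lost without wild-type myotube I (adjusted p 0.0564) or Rb-flox myotube L (0.0506). The remaining gap to wild-type myoblasts was -1.64 (95% interval -2.14 to -1.14, limma adjusted p = 0.000844, or 0.00979 when scan day was a block).

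Both Aurora kinases fell in wild-type myotubes and rose again in Rb-flox myotubes. Aurka (1424511_at; chr2:172356190-172370886), which acts at the spindle poles, read 2749, 4058 and 3605 in wild-type myoblasts, 1113, 360.5 and 736 in wild-type myotubes and 2261, 2034 and 2546 in Rb-flox myotubes. Its return was 1.57 (SE 0.28, limma adjusted p = 0.00423), which is 73.5% of a fall of -2.14. The gap to wild-type myoblasts was -0.57 (95% interval -1.18 to 0.05, limma adjusted p = 0.19), although the cultures of both groups did not overlap. Aurkb (1424128_x_at; chr11:69045624-69051664), the kinase of the chromosomal passenger complex, read 1927, 2669 and 2338, then 504, 364 and 653, then 909, 1428 and 1210.1 in the same order of groups. Its return was 1.05 (SE 0.25, limma adjusted p = 0.0204), or 53.7% of a fall of -1.95, and it was lost when any of 3 cultures was left out, with a largest adjusted p of 0.0725 without wild-type myotube H. The gap of -0.90 (limma adjusted p = 0.0275) was lost without any of 4 cultures, with a largest adjusted p of 0.0916 without Rb-flox myotube J, and with scan day as a block (0.0607). A probe set ending in _x_at can also bind related transcripts, and Aurkb had no plain one.

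All 3 checkpoint kinases rose in Rb-flox myotubes, and the remaining gap was called for Bub1b and Bub1 but not for Ttk. Bub1b (1416961_at; chr2:118598202-118641592), whose product BubR1 inhibits the anaphase-promoting complex, read 3121, 2789 and 4239 in wild-type myoblasts, 153, 136 and 56.8 in wild-type myotubes and 1619, 951 and 1328 in Rb-flox myotubes. The groups did not overlap, and the return was 2.54 (SE 0.26, limma adjusted p = 5.83e-05), or 66.1% of a fall of -3.84. Its gap to wild-type myoblasts was -1.30 (limma adjusted p = 0.00501, or 0.0778 when scan day was a block).

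Bub1 (1424046_at; chr2:127800197-127831859), which recruits checkpoint proteins to kinetochores, read 1443, 920.0 and 2089.7 in wild-type myoblasts, 13.4, 43.5 and 24.3 in wild-type myotubes and 546, 233 and 518 in Rb-flox myotubes. All wild-type myotube signals lay under the offset. The return was 1.79 (SE 0.34, limma adjusted p = 0.00574), or 54.3% of a fall of -3.30 on the log2 scale. The size of this return depends on the offset: it was 3.35 with an offset of 16 and 0.89 with one of 435. The rise was 3.46-fold in the fit and 15.97-fold as a ratio of mean signals. The gap was -1.51 (limma adjusted p = 0.0101), with an adjusted p of 0.0597 without wild-type myoblast C and 0.186 with scan day as a block.

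Ttk (1449171_at; chr9:83834651-83872390), which encodes Mps1, the kinase at the top of the checkpoint, read 983, 1029.6 and 1609.9 in wild-type myoblasts, 225, 156 and 39.5 in wild-type myotubes and 321, 731 and 559 in Rb-flox myotubes. The return was 1.32 (SE 0.36, limma adjusted p = 0.0369), or 56.3% of a fall of -2.34. Of the 8 called returns it was lost most often when cultures were left out. It missed the threshold without any of 5 cultures, with a largest adjusted p of 0.127 without wild-type myotube I. With an offset of 435 the return was 0.75 and missed the threshold as well (limma adjusted p = 0.064). The gap was -1.02 (95% interval -1.79 to -0.26, limma adjusted p = 0.0677), and it did pass the threshold under 4 of the alternative settings, with adjusted p from 0.0151 with array weights to 0.04 with quantile normalisation.

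Nek2 (chr1:191821449-191833049), a centrosomal kinase that helps separate the spindle poles, depended on the probe set. The representative one (1417299_at) read 983, 1124 and 484 in wild-type myoblasts, 409.8, 518 and 228 in wild-type myotubes and 1366, 583 and 683 in Rb-flox myotubes. Its fall of -0.93 (limma adjusted p = 0.0917) and return of 0.93 (limma adjusted p = 0.169) did not pass, and the gap was 0.01 (95% interval -0.81 to 0.82). The probe set 1437580_s_at, on MOE430B, read 5424, 5807 and 9414, then 109, 132 and 424, then 3539, 2377 and 906 in the same order of groups. There Nek2 fell by 4.08 on the log2 scale (limma adjusted p = 1.33e-05) and was higher in Rb-flox than in wild-type myotubes by 2.44 (limma adjusted p = 0.00198), 59.8% of the fall, with a gap of -1.64 (limma adjusted p = 0.0138). That gap did not hold without wild-type myoblast C (adjusted p 0.0691) or with scan day as a block (0.183). On the probe set 1437579_at the difference between wild-type myotubes and myoblasts was 0.04 and the return 0.61 (limma adjusted p = 0.282), and 1443999_at had a fall of -1.03 and a return of 0.65, neither of them called.

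**Figure D2:**
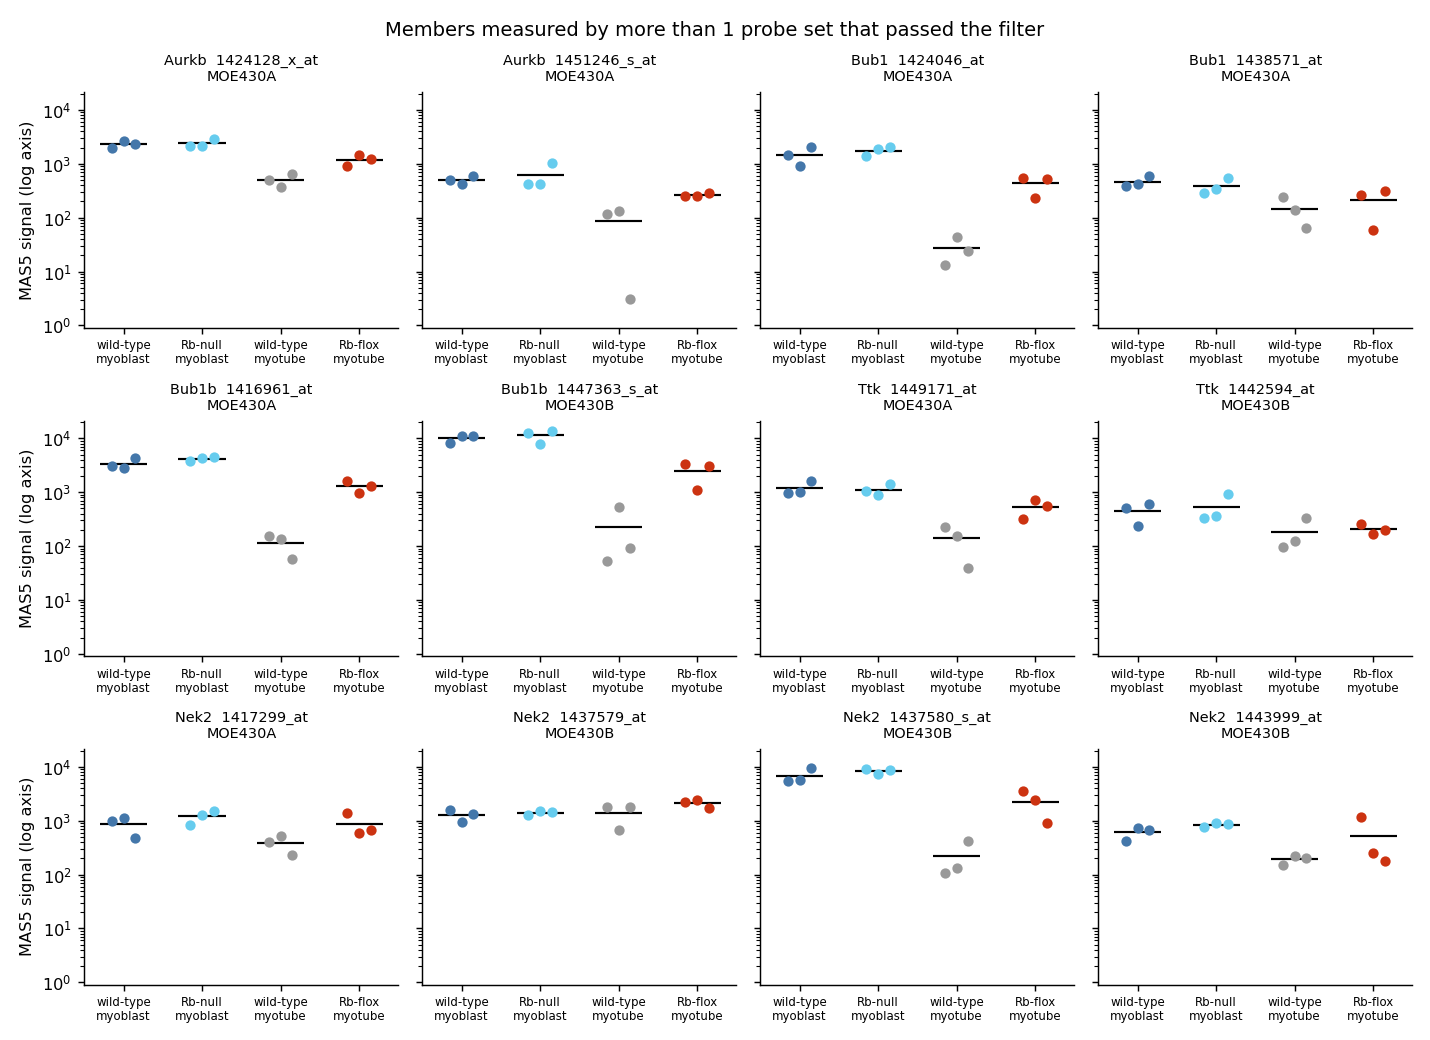
MAS5 signal (log axis) by culture for the 5 genes measured by more than 1 probe set that passed the filter. Points are cultures and bars are group means. The probe sets of Bub1b and Aurkb show the same order of groups, while for Nek2 one probe set drops steeply in wild-type myotubes and another (1437579_at) does not.

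The other repeated probe sets share their target with the representative ones and are no further replicates. The second Bub1b probe set (1447363_s_at) had a return of 2.68 (limma adjusted p = 0.00161) and a gap of -2.05 (limma adjusted p = 0.00625), beside 2.54 and -1.30 for the representative one. The second Aurkb probe set (1451246_s_at) had a called fall of -1.61 and a return of 0.92 (limma adjusted p = 0.168). For Bub1 and Ttk the second probe sets were dim. Bub1 1438571_at fell by 1.14 on the log2 scale (limma adjusted p = 0.0472) with a return of 0.25, and Ttk 1442594_at had a fall of -0.76 and a return of 0.13, neither called.

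Against wild-type myoblasts, Rb-flox myotubes stayed lower for 7 of the 16 member probe sets and 5 of the 9 representative ones (Plk1, Bub1, Bub1b, Ccnb2 and Aurkb), and 0 were higher. Over all probe sets 15.8% differed in this comparison, 7.11% higher and 8.73% lower, with a median of 0.13, and 17% of the representative ones differed. The members' medians were -0.90 over 16 and -1.02 over 9. Of all called probe sets 44.9% were higher, and 32.8% when each array was centred on its median, a setting that left the members' count at 7. Cultures did not overlap for 8 of the 9 genes, Nek2 being the exception. The share over all genes was again not counted, so this count is not read as support for the gap. With scan day as a block, 2 of 16 were called, Plk1 and Ccnb2, a fit in which wild-type myoblast B is the only myoblast culture scanned with the myotubes. Against that culture alone the median was -0.83 over 16 and -0.95 over 9. Leaving out wild-type myoblast C left 4 calls.

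**Figure D3:**
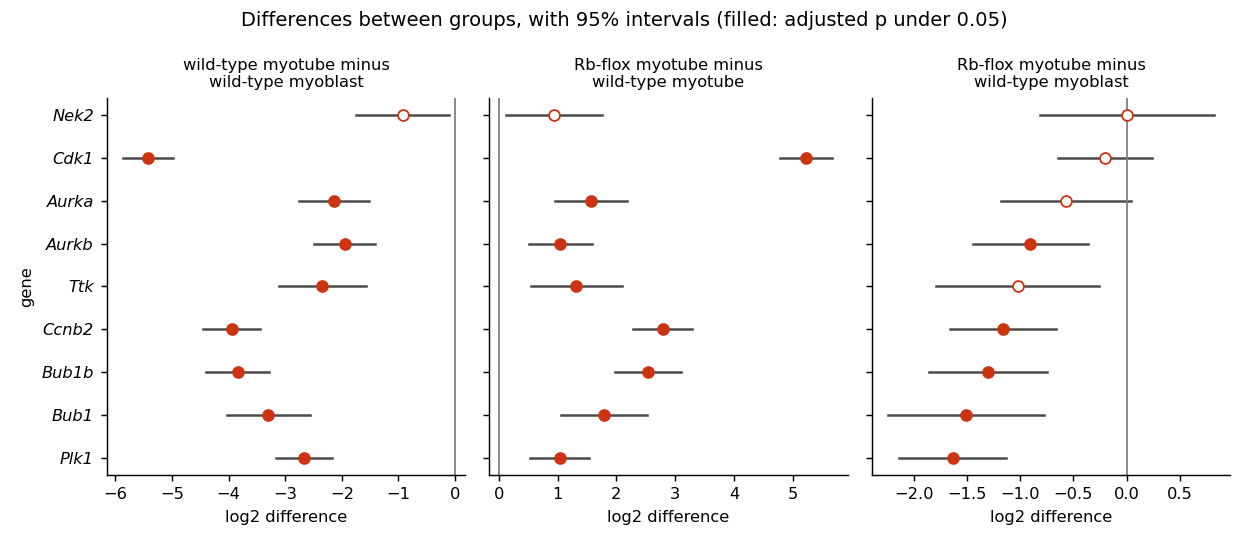
Log2 difference between groups (x axis) for each gene (y axis, ordered by its difference in the right panel), for the fall (left), the return (middle) and the gap to wild-type myoblasts (right). Points are limma estimates, filled where the adjusted p is under 0.05, and bars are 95% intervals. Cdk1 has the lowest point on the left and the highest in the middle, and on the right its interval includes 0, as do those of Nek2 and Aurka.

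Ordered by the gap, from the fullest return to the largest shortfall, the genes ran Nek2, Cdk1, Aurka, Aurkb, Ttk, Ccnb2, Bub1b, Bub1 and Plk1. Nek2 stands first by a probe set whose fall was not called, and its probe set with a called fall (1437580_s_at) had a gap of -1.64, as large as that of Plk1. In all 8 pairs of neighbours in this order the cultures overlapped. Exact two-sided permutation p-values were 0.2 to 0.9, each 0.9 after adjustment over the 8 pairs. With 3 against 3 cultures the smallest such p is 0.1, so this test could not separate any pair at 0.05. Neighbours were also set by the same gaps, so nothing is concluded from it. Cdk1 was then set against each other member, a comparison chosen after the values were seen. The gap of Cdk1 was smaller without overlap between cultures in 6 of 8 pairs, by 0.70 (Aurkb) to 1.43 (Plk1) on the log2 scale. The cultures overlapped for Aurka, with a difference of 0.36, and for Nek2, with -0.21. With an offset of 16 the gap differed from that of Cdk1 by more for Bub1 (1.55) than for Plk1 (1.51). The last places in the order thus depend on the offset. The return of Cdk1 was larger without overlap than that of 8 of 8 others, by 2.43 (Ccnb2) to 4.29 (Nek2). These sizes depend on the offset, because the wild-type myotube means of Cdk1, Ccnb2, Bub1b and Bub1 lie under it: they were 2.45 to 5.13 with an offset of 16 and 2.30 to 3.42 with one of 435, alternatives chosen after the values were seen, and without overlap in 8 of 8 pairs under both. Each of these separated pairs has an exact two-sided permutation p of 0.1, the smallest that 3 against 3 cultures allow, and 0.133 (gap) or 0.1 (return) after adjustment over the 8 pairs of its family.

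Within a group no single culture was lowest for every gene. Among Rb-flox myotubes, K was lowest for 5 of 9 genes (Aurka, Bub1, Bub1b, Ccnb2 and Nek2), J for 3 (Aurkb, Plk1 and Ttk) and L for Cdk1. K thus had the lowest Bub1 signal of its group, 233, and the highest Plk1 and Ttk signals, 1530.3 and 731. Among wild-type myotubes, I was lowest for 6 of 9 genes.

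In dividing myoblasts no member passed the test for an effect of Rb loss. Cdk1 read 12050.2, 12435 and 11484 in Rb-null myoblasts, 119% of the wild-type mean, and all 3 cultures lay above all wild-type ones. Ccnb2 (126%) and Plk1 (122%) also had groups that did not overlap, and the other 6 genes lay between 92.8% (Ttk) and 140% (Nek2) of the wild-type mean. How many of all probe sets separate in this way was not counted, so these separations are not read as an effect. By limma 0 of 16 member probe sets were called, 0 had an unadjusted p under 0.05, and the differences were positive for 14 of 16 with a median of 0.21. Over all probe sets 0% were called, 1431 of 31931 had an unadjusted p under 0.05, and the median was 0.003. The interval for Cdk1, -0.19 to 0.70 on the log2 scale, shows the size of change that 3 cultures leave undecided.

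The effect of Rb loss was larger in myotubes than in myoblasts for the representative probe sets of 3 of the 9 genes, by the interaction term of the fit. It was larger by 4.97 for Cdk1 (SE 0.29, limma adjusted p = 5.72e-06), by 2.45 for Ccnb2 (SE 0.33, limma adjusted p = 0.0026) and by 2.21 for Bub1b (SE 0.36, limma adjusted p = 0.00938). These sizes depend on the offset, because the wild-type myotube means of all 3 genes lie under it. For the second Bub1b probe set (1447363_s_at) the term was 2.54 and missed the threshold (limma adjusted p = 0.0592). The calls were 3 of 16 member probe sets, all higher, against 1.3% of all probe sets, 0.883% higher and 0.413% lower, and 1.67% of the representative ones. The difference was positive but missed the threshold for the other 6 genes, from 0.47 for Nek2 (limma adjusted p = 0.822) to 1.52 for Bub1 (limma adjusted p = 0.167). For Plk1 it was 0.74 (95% interval 0.03 to 1.45, limma adjusted p = 0.368).

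Rb-flox myotubes were also set against Rb-null myoblasts, which lack the same protein but divide in growth medium. Here 7 of 16 member probe sets and 5 of 9 representative ones were lower and 0 higher, where over all probe sets 15.3% differed, 6.61% higher and 8.67% lower, and 16.9% of the representative ones differed. Plk1 was lower (difference -1.93, limma adjusted p = 0.000357), and Bub1 (-1.78), Bub1b (-1.63), Ccnb2 (-1.50) and Aurkb (-0.95) passed as well. Cdk1 differed by -0.46 (95% interval -0.90 to -0.02, limma adjusted p = 0.143), with the Rb-flox cultures below all Rb-null ones. No scan day held cultures of both groups, and with scan day as a block 1 call was left, that of Plk1 (adjusted p 0.0379). Of all called probe sets 43.3% were higher, and 32.1% with median centring.

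Genes that work with the members were taken as lists, also chosen with earlier results of these data known. Each list is to be read against the 27.7% (fall) and 9.95% (return) of all genes' representative probe sets called in either direction. Of 14 partners and switches of Cdk1, 9 fell in wild-type myotubes and 1 rose, and 6 rose in Rb-flox myotubes, with a median of 0.62. Cks2, a subunit of Cdk1 complexes, rose most, by 2.47, and Ccna2, the gene of cyclin A2, rose by 2.38. The activating phosphatase gene Cdc25c had a return of 0.40 (limma adjusted p = 0.598), and Ensa, which yields an inhibitor of the opposing phosphatase, had the lowest value, -0.08. Of 9 tested partners of the Aurora kinases, 9 fell and 7 of these rose in Rb-flox myotubes, with a median of 2.03. Birc5, which encodes the passenger protein survivin, rose by 3.18, while Haspin (0.72) and Sgo1 (1.12), which help place the passenger complex at centromeres, did not pass. Of 12 partners in the spindle checkpoint, 9 fell and 6 of these rose, with a median of 1.41. Mad2l1, the gene of the checkpoint protein Mad2, rose by 3.06. Spc24, a subunit of the Ndc80 complex, had a return of 1.12 (limma adjusted p = 0.0925) and stayed below wild-type myoblasts (difference -2.58, limma adjusted p = 0.00106).

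Of 18 genes of the anaphase-promoting complex and its regulators, 10 fell and 6 rose in Rb-flox myotubes, 5 of them genes that had fallen, with a median of 0.41. The one that had not was Anapc5, a core subunit, with a difference of 0.19 in wild-type myotubes (limma adjusted p = 0.43), a rise of 1.02 in Rb-flox myotubes and a level above wild-type myoblasts by 1.21 (limma adjusted p = 0.000769). Ube2c, the ubiquitin-conjugating enzyme of the complex, rose by 4.14, and Pttg1, the gene of securin, by 3.13. Anapc7, another core subunit, had the lowest value, -0.67, and did not pass. Of 9 other cell cycle kinases, 6 fell and the same 6 rose, with a median of 1.31, led by Vrk1 (2.08), while Chek2 had 0.01. Of 13 tested relatives of the members that are not restricted to mitosis, 3 fell and 1 rose in wild-type myotubes, a share near that of all genes, and 3 rose in Rb-flox myotubes (Cdk2, Cdk4 and Nek4), with a median of 0.40. Plk2 had a return of 2.21 but did not pass (limma adjusted p = 0.122). Of 19 transcription factors known to act on G2/M genes, 7 fell and 2 rose, and 4 rose in Rb-flox myotubes: E2f1 (2.96), Rbl1 (1.90), Tfdp1 (1.81) and Foxm1 (1.39). E2f1 was also above wild-type myoblasts, by 0.97 (limma adjusted p = 0.0111), where no member was called higher. In Rb-null against wild-type myoblasts, 0 genes of these lists were called.

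**Figure D4:**
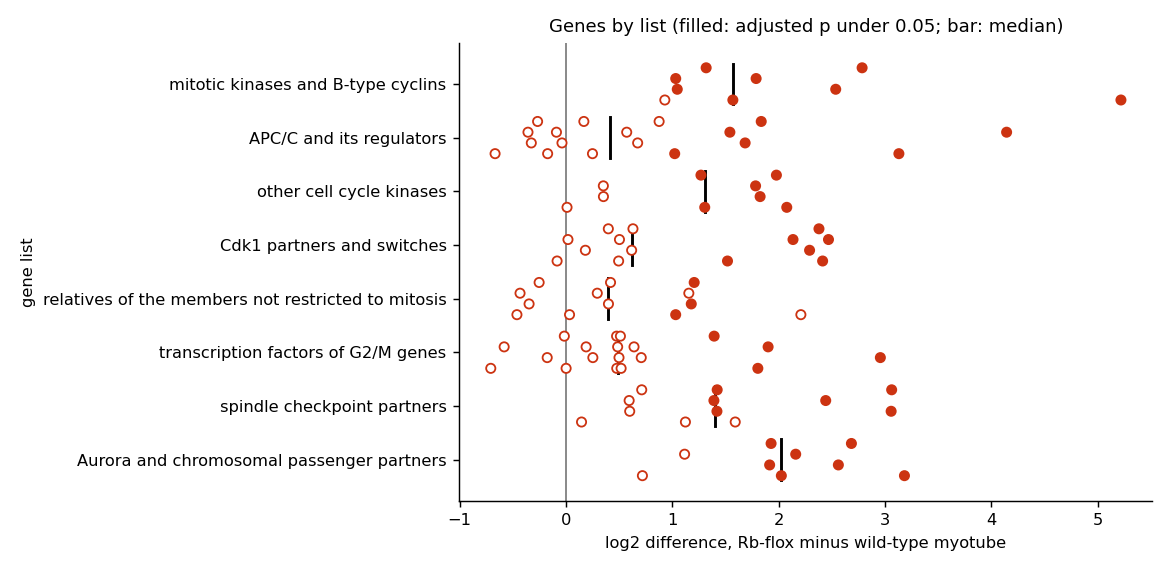
Log2 difference between Rb-flox and wild-type myotubes (x axis) for the members and the genes of each list (y axis). Each point is a gene, filled where the adjusted p is under 0.05, spread vertically for legibility, and the black bar is the median of the list. Cdk1, at 5.22, lies to the right of every listed gene, Ube2c is next at 4.14, and the medians run from 0.40 to 2.03.

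Among 14331 genes with 1 representative probe set each, the 5 outside the set whose log2 values over the 12 cultures were most like the members' mean standardised profile were Pclaf (Pearson r = 0.993), Birc5 (0.992), 4930579G24Rik (0.991), Cenpa (0.988) and Kif20b (0.983). Their returns were 2.32, 3.18, 2.66, 2.37 and 1.83, and their gaps to wild-type myoblasts were -0.86, -1.51, -0.93, -1.56 and -0.88. The members themselves, which make up that profile, ran from 0.994 (Bub1b and Ccnb2) to 0.773 (Nek2), with Cdk1 at 0.947. These values describe 12 points that fall into 4 groups and share arrays.

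Sums of some marker lists and the beta-actin array control differed between the myotube groups, while the Gapdh control did not. The summed signal of 6 myotube markers, all passing the filter, was 424549 to 586593 in wild-type and 208418 to 277496 in Rb-flox myotubes, against 34474 to 89274 in wild-type and 30450.3 to 123104 in Rb-null myoblasts. The sum of 8 fibroblast markers, of which 5 passed the filter, was 4974 to 10248 in wild-type myotubes, 13038 to 16762 in Rb-flox myotubes and 16459.6 to 27286 in wild-type myoblasts. Rb-flox myotubes thus had lower myotube and higher fibroblast sums than wild-type myotubes, without overlap. All 6 myotube markers had a lower mean in Rb-flox myotubes, 5 without overlap. Of the 8 fibroblast markers 6 had a higher and 2 a lower mean, and Col3a1 alone had groups that did not overlap, with means of 1372 in wild-type and 8316 in Rb-flox myotubes. For Col1a2 the means were 1835 and 1857, and for Pdgfra 842 and 681. The sum of 4 smooth muscle markers, 2 of them passing, was also lower, at 2634 to 3285 against 4419 to 6720.4, and for 5 markers of myogenic cells, 5 of macrophages, 5 of endothelium and 4 of adipocytes the ranges of the myotube groups overlapped. The beta-actin 3′/5′ ratio on MOE430A was 0.533 ± 0.0962 (SD, n = 3) in wild-type and 0.879 ± 0.0794 (SD, n = 3) in Rb-flox myotubes, and 1.10 ± 0.0626 and 1.02 ± 0.0533 (SD, n = 3 each) in wild-type and Rb-null myoblasts. The Gapdh 3′/5′ ratio on MOE430A was 0.834 ± 0.0377 (SD, n = 3) in wild-type and 0.822 ± 0.0533 (SD, n = 3) in Rb-flox myotubes. The part of these markers and controls in the return of the mitotic genes was not tested.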

How the data were processed

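The authors' deposited tables hold linear MAS5 signal intensities, and the submitters' processing notes give no MAS5 version. The values themselves show a scaling to a trimmed mean of 1500 on each array, with 2% of probe sets trimmed at each end. No detection calls were used. Gene symbols came from the supplied annotation and were updated through Entrez IDs to RefSeq GRCm38.p6, whose gene coordinates are printed. MOE430A held 20380 probe sets with 1 gene, 691 with several, 1555 unnamed and 64 controls, and MOE430B held 14661, 245, 7605 and 64.

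An offset, the 20th percentile of the chip table, was added to each signal before the log2. limma 3.58.1 in R 4.3.3 (lmFit with 1 mean per group, eBayes with a trend) fitted all 12 cultures, tested on simulated data. Gaps between genes were compared by exact permutation tests over cultures (scipy 1.17.1). Other steps used Python 3.11.15 with pandas 2.3.3, numpy 2.4.6 and matplotlib 3.10.9. A gene's representative probe set was the MOE430A one before MOE430B, one not ending in _x_at or _s_at before others, then the brightest. Named genes were all members, Rb1, up to 5 per list (the extremes of the return and some that did not pass) and the 5 genes most alike. Ccna2, Pttg1, Anapc5, the 3 fibroblast markers and the 3 factors after E2f1 were named after their values were seen. Members and lists were chosen with earlier results of these data known. The alternatives were other normalisations, offsets and filters, scan day as a block, separate chip types, array weights, 1 probe set per gene and leaving out each culture.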

Additional observations from a re-analysis of the deposited data

Results flagged for a closer look

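The effect of Rb loss differed between myotubes and myoblasts by the interaction term of the limma fit for 3 representative probe sets. The difference was 4.97 for Cdk1, 2.45 for Ccnb2 and 2.21 for Bub1b on the log2 scale, each higher in myotubes. These sizes depend on the offset, because the wild-type myotube means of these genes lie under it. The 3 calls held with scan day as a block and without any 1 culture, with largest adjusted p-values of 8.91e-05, 0.014 and 0.0394. For the second Bub1b probe set the same difference was 2.54 (limma adjusted p = 0.0592).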

How the results depend on the processing

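No paired analysis was possible because the culture letters A to L are not shared between groups. The 8 called falls and 8 called returns of the representative probe sets kept their direction under every alternative run. Member calls ranged, over the single cultures left out, from 11 to 12 (fall), 7 to 10 (return), 4 to 7 (gap to wild-type myoblasts), 0 to 0 (Rb-null against wild-type myoblasts), 6 to 8 (gap to Rb-null myoblasts) and 3 to 4 (difference of the Rb effects). The same ranges over all probe sets were 5060 to 8755, 1798 to 2790, 2525 to 5637, 0 to 1, 2741 to 5615 and 177 to 493. With scan day as a block, members called were 2 for the gap to wild-type and 1 for the gap to Rb-null myoblasts, and over all probe sets 3764 fell or rose, with 1691 and 242 for the gaps. Array weights gave 5 members for the difference of the Rb effects and, over all probe sets, 8643 (gap to wild-type), 3 (Rb-null) and 838 (difference). Separate chip types gave 2 (Rb-null) and 683 (difference). One probe set per gene, with fewer features tested, gave 4304 (fall), 1665 (return), 2697 and 2735 (gaps). The cause of the other changes was not tested.

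Reversals came in small or dim values. The fall of Nek2 1437579_at was -0.088 with quantile normalisation, -0.11 with median centring and -0.17 to 0.44 over single cultures left out. The gap of Nek2 1417299_at was -0.15, -0.049 and, with the scan day block, -0.39, and -0.32 to 0.22 over cultures left out. With that block the Rb-null difference was -0.0044 for Bub1 1424046_at, -0.15 for Nek2 1437579_at and -0.52 for Ttk 1442594_at (-0.13 with array weights), and the gap of the last to Rb-null myoblasts was 0.44. Its difference of the Rb effects was 0.0094 (quantile), 0.13 (offset of 16), 0.65 (block) and 0.25 (weights), and -0.21 to 0.34 over cultures left out, where its return was -0.028 to 0.38. Over cultures left out, the Rb-null difference was -0.015 to 0.26 for Aurka 1424511_at, -0.080 to 0.15 for Aurkb 1424128_x_at, -0.20 to 0.35 for Aurkb 1451246_s_at, -0.0044 to 0.54 for Bub1 1424046_at, -0.0010 to 0.39 for Bub1b 1447363_s_at, -0.045 to 0.27 for Nek2 1437579_at, -0.21 to 0.34 for Ttk 1442594_at and -0.25 to 0.12 for Ttk 1449171_at. The difference of the Rb effects for Nek2 1443999_at was -0.29 to 0.62.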
